A study of Mus musculus with 6 samples.

Results

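Genes of the primary cilium were measured in pancreatic islets of male NZO mice and male B6-ob/ob mice. They were taken as the probes whose gene name in the scanner files is 1 of 38 listed cilium names, or starts with Bbs or Ift and a digit. Of these names 36 stand on the array with 77 probes, out of 41174 probes that are not controls, and Ift46 and Mks1 have no probe of that name. Signal well above background, by the scanner's own mark, on 3 or more of the 6 arrays was required, which held for 63 of the 77 probes, at least 1 for each of the 36 genes (the other 14 are of Ahi1, Alms1, Bbs9, Ift57, Ift80, Ift140, Pkd2, Rpgrip1l and Tmem67), and for 24627 probes in all, here called kept.

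The 3 NZO samples (replicates 10, 11 and 12) are islets of the strain NZO/HiBomDife, labelled diabetes-prone. The 3 B6-ob/ob samples (replicates 4, 5 and 6) are islets of C57BL/6.V-Lepob/ob, a leptin-deficient line labelled diabetes-resistant. Both strains had a high-fat diet free of carbohydrate until 18 weeks of age and then 48 h of a diet with carbohydrate before islet isolation, so the values compare strains at 1 time and 1 diet. The lack of leptin and the rest of the genetic background differ together between these strains and cannot be told apart. Each sample was hybridised to 1 array of 1 colour (Cy3). The labels name neither the number of animals behind a sample nor an islet sort, and p-values therefore measure the spread between samples that may be technical repeats.

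The primary cilium is a single antenna of microtubules on the surface of most cells, islet endocrine cells included. Trains of intraflagellar transport (IFT) particles carry its building blocks, with IFT-B moving outward on kinesin-2 and IFT-A returning. The BBSome, a coat complex, moves receptors through the ciliary membrane, and the transition zone at the base gates what enters. In humans, loss of BBSome genes causes Bardet-Biedl syndrome and loss of ALMS1 causes Alström syndrome, both with obesity. In mice, loss of beta cell cilia impairs insulin secretion.

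A selection of called probes is shown here because a difference between strains is read through these letters: those of Ttc8 and Pkd2, with the widest differences, of Rpgrip1l and Bbs7, and of Ift57, whose kept probes were all called. Each is a 60-base oligonucleotide, given 5′ to 3′ in lower case, with the mm9 position that the files give. Where no reading frame of a probe was open, the first 30 bases are printed.
Ttc8, chr12:100221132-100221191, plus strand, first 30 bases: ctgactaagatctagaagccgcagattaga
Pkd2, chr5:104932529-104932588, plus strand: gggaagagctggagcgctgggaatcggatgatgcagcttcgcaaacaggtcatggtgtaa
Rpgrip1l, chr8:93831980-93832039, minus strand: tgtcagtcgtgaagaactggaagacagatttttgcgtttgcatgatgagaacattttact
Bbs7, chr3:36506628-36509159, minus strand: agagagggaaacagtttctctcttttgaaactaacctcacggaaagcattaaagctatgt
Ift57, chr16:49736873-49758532, plus strand: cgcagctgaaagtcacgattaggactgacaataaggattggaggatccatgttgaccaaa
Ift57, chr16:49759454-49759513, plus strand: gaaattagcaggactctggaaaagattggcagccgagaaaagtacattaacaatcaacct
The Bbs7 probe and the first Ift57 probe cover 2532 and 21660 bases of the genome, far more than 60, so each crosses an intron. Whether a probe lies in coding sequence or in a UTR was not given by the files.

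More probes of cilium genes were lower than higher in NZO islets. At an adjusted p under 0.05 (limma, with Benjamini-Hochberg adjustment over all 24627 kept probes) 15 of the 63 probes were lower in NZO, or 23.8%, against 10.3% of all kept probes. Another 3 were higher, or 4.76%, against 11.5% of all kept probes, and 45 passed in neither direction. The 15 probes belong to 13 genes, led by the BBSome gene Ttc8, the transition zone gene Rpgrip1l, Bbs7, Tulp3 and Ift57, and the 3 higher probes belong to Pkd2 and Alms1. The median difference of the 63 probes, NZO minus B6-ob/ob, was -0.26 on the log2 scale, against -0.06 over all kept probes. Differences below 0 numbered 50 of 63 (79.4%), against 56.1% of all kept probes. These directions follow the labels of the scanner files and oppose those of the deposited value table, as described next.

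Every value table column tracked an array that carries the other strain's label: over probes, r was 0.9655 to 0.9842 with that array and -0.7781 to -0.5227 with the array of its own label, after centring each probe. Ifi202b and H2-Ea are not expressed in B6 mice, and their probes passed the background mark on the 3 arrays labelled NZO and on 0 of the 3 labelled B6-ob/ob. The bounds were at least 46.2-fold higher in NZO for Ifi202b and at least 10.3-fold for H2-Ea, each the mean NZO level set against the lowest signal well above background on each B6-ob/ob array, or the probe's own where that is higher. Between 23617 and 24710 probes were well above background per array. Insulin and glucagon marked the tissue: Ins1, Ins2, Gcg and Sst were well above background on all 6 arrays, and none was called. The difference was 0.07 for Ins1, 0.09 and 0.06 at the probes of Ins2, 0.09 for Gcg and -0.54 for Sst.

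The 3 NZO arrays lay wholly below the 3 B6-ob/ob arrays at 24 of the 63 probes (38.1%, against 22.4% of all kept probes). They lay wholly above at 5 probes (7.94%, against 18.6%), and the groups overlapped at 34. The median deviation of the cilium probes from their 6-array mean was -0.17, -0.27 and -0.01 on NZO arrays 10, 11 and 12, against 0.10, 0.18 and 0.27 on B6-ob/ob arrays 4, 5 and 6. So NZO 12 stood nearest to the B6-ob/ob arrays and B6-ob/ob 4 nearest to the NZO arrays. Over all kept probes the same deviation stayed between -0.03 and 0.03. The median SD between arrays of a strain was 0.168 in NZO and 0.194 in B6-ob/ob for the cilium probes, and 0.176 in NZO and 0.215 in B6-ob/ob for all kept probes. Without the probes of Ttc8 and Pkd2, the genes with the widest differences, the median of the other 60 probes was -0.27. Without B6-ob/ob replicate 5 the count of lower probes was 9, and the median of the 63 was -0.26.

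**Figure D1:**
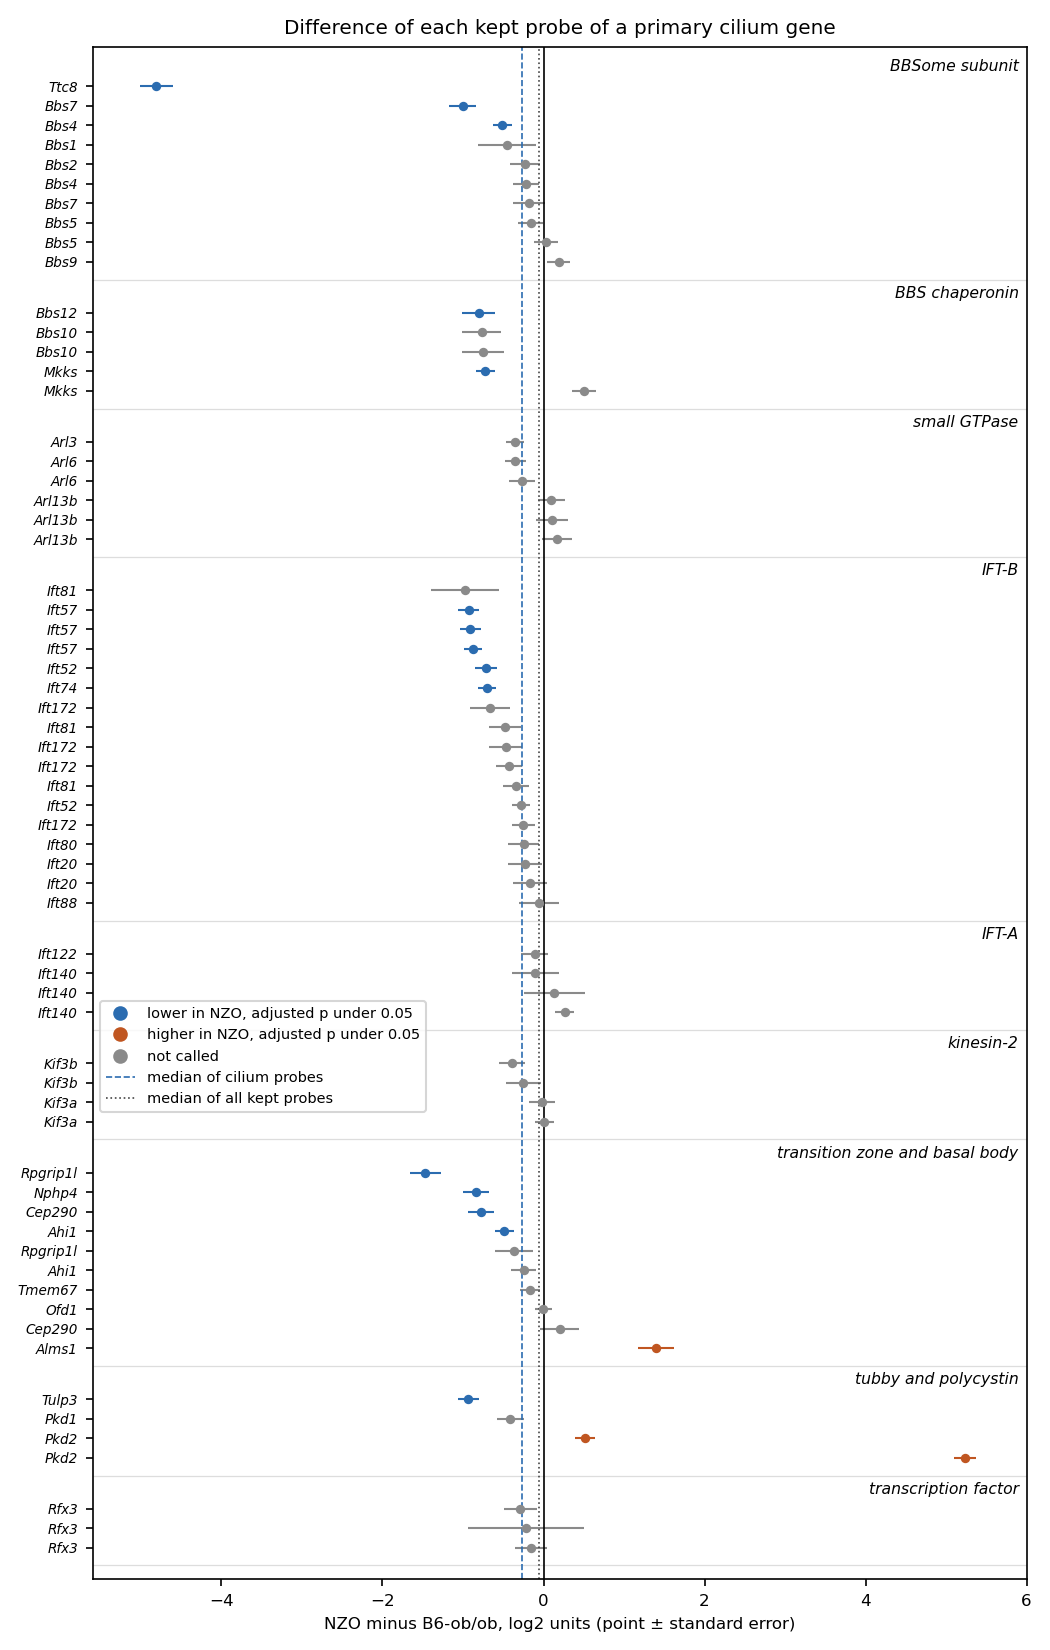
Difference in log2 units, NZO minus B6-ob/ob, of the 63 kept probes of primary cilium genes, 1 line per probe, grouped by role, with bars for the standard error of the fit. Blue points are the 15 probes called lower in NZO, orange points the 3 called higher and grey points the 45 not called. Points lie mostly left of 0, with Ttc8 at -4.81 and a Pkd2 probe at 5.23 far outside the rest, and all 17 IFT-B probes lie below 0.

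The 6 arrays lay on 3 slides, with NZO 12 alone on slide 1, NZO 10 and B6-ob/ob 4 on slide 2, and NZO 11 and B6-ob/ob 5 and 6 on slide 3. Within slide 2 the median difference of the cilium probes was -0.28, with 46 of 63 below 0. Within slide 3 it was -0.46, with 45 of 63 below 0. With slide as a fixed block 12 probes were lower and 2 higher. The block ended the calls of Ahi1 (limma adjusted p = 0.124), Bbs4 (0.0705), Bbs12 (0.0787), Cep290 (0.0749) and the Pkd2 probe with the smaller difference (0.107).

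Markers of several other pancreatic cell types were higher in NZO. Among all kept probes 11.5% were higher and 10.3% lower. Acinar markers were higher in NZO at 12 of 15 kept probes (80%). Their mean level was 4.44, 4.58 and 5.18 on NZO arrays, against 3.44, 2.90 and 2.10 on B6-ob/ob arrays. Of their 16 probes 15 were well above background on every NZO array and 14 on every B6-ob/ob array, so acinar RNA was present in both. Ductal markers were higher at 9 of 15 probes (60%) and stellate markers at 12 of 14 (85.7%). Beta cell markers were lower at 1 of 11 (9.09%, near the 10.3% of all kept probes) and higher at 0. The ductal mean level was -0.16, 0.14 and -0.20 on NZO arrays, against -1.56, -2.19 and -2.72 on B6-ob/ob arrays. The stellate mean level was 1.65, 1.48 and 1.80 on NZO arrays, against 0.00, -0.83 and -1.22 on B6-ob/ob arrays. Krt19 of duct cells was higher by 4.37 and Ctrb1 of acinar cells by 2.89. Endothelial markers were higher at 3 of 9 probes (33.3%) and macrophage markers at 4 of 8 (50%). Neuron and Schwann cell markers were higher at 1 of 7 (14.3%, near the 11.5% of all kept probes). Other endocrine markers were lower at 2 of 9 (22.2%). Ductal cells carry primary cilia and adult acinar cells are known to carry few. The beta cell mean level was 4.98, 4.82 and 5.21 on NZO arrays, against 4.71, 5.09 and 5.64 on B6-ob/ob arrays. Within each strain the beta cell means stood in the same order as the cilium deviations given above. The ductal means stood in the reverse order of these deviations in each strain. On B6-ob/ob arrays 4, 5 and 6 the acinar and stellate means also stood in the reverse order. On NZO arrays the acinar means did not, and the stellate means stood in the same order as the deviations. With 3 arrays per strain such orders carry little weight. The part of any of these cell types in the cilium differences was not tested. In bulk islets fewer cells of a type and less RNA per cell cannot be told apart.

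Dividing cells, which take their cilia down, were also unequal between arrays. The mean level of their markers was -2.36, -2.75 and -2.61 on NZO arrays, against 0.92, 0.19 and -3.74 on B6-ob/ob arrays. Here B6-ob/ob 6 stood apart from the other 2 of its strain. Of 17 probes 2 were lower over all arrays (11.8%, near the 10.3% of all kept probes). The count was 16 without B6-ob/ob replicate 6, 1 without B6-ob/ob replicate 4 and 0 without any other array. Prc1 and Mcm2 were those called over all arrays, at -2.95 and -1.30, and Mki67 was not called at either probe, with -1.32 and -1.63 (limma adjusted p = 0.532 and 0.466). Without B6-ob/ob replicate 6, 13 cilium probes were lower and 3 higher, with a median of -0.26.

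Subunits of the BBSome held the lowest value of the set. The level of Ttc8, a subunit with tetratricopeptide repeats, was -4.08, -3.38 and -3.50 on NZO arrays 10, 11 and 12, against 1.18, 1.02 and 1.27 on B6-ob/ob arrays 4, 5 and 6. Levels are log2 of the processed intensity relative to the 75th percentile of each array, and they can be compared between arrays at 1 probe but not between probes. The strains did not overlap, and the probe was well above background on all 6 arrays. Ttc8 was 28.0-fold lower in NZO (difference -4.81, SE 0.21, limma adjusted p = 0.000108), the 43rd lowest of 24627. Over 17 alternative settings the difference ran from -4.94 to -3.42, so the fold depends on the processing. A difference over 4 in size was found at 0.686% of kept probes. Ttc8 has 1 probe on this array, so no second probe measured it.

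Bbs7, a propeller subunit that pairs with Bbs2 in the complex, was lower by 1 of 2 kept probes. The probe printed above had levels of -4.74, -4.46 and -4.18 in NZO, against -3.51, -3.40 and -3.45 in B6-ob/ob, a difference of -1.01 (SE 0.17, limma adjusted p = 0.00816). The strains did not overlap there. With normexp background at the 75th percentile the difference was -0.17 and was not called (adjusted p = 0.467), and with normexp and quantile normalization it was -0.32 (adjusted p = 0.0316). The second Bbs7 probe overlapped between strains, with a difference of -0.19 (adjusted p = 0.563). Bbs4, a further repeat subunit, had levels of -1.60, -1.72 and -1.47 in NZO, against -1.12, -1.02 and -1.12 in B6-ob/ob, by a probe whose groups did not overlap. Its difference was -0.51 (SE 0.12, limma adjusted p = 0.0264), and that of the other Bbs4 probe was -0.22 (adjusted p = 0.384). The call was made in 10 of 16 alternative settings, with -0.32 under normexp background at the 75th percentile (adjusted p = 0.104), and was lost with NZO 10, NZO 11 or B6-ob/ob 5 left out. Bbs1, Bbs2, Bbs5 and Bbs9 passed by no probe, with differences between -0.45 and 0.19. In all, 3 of 10 BBSome probes were lower (30%, against 10.3% of all kept probes) and 0 higher (against 11.5%), with a median of -0.22.

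The chaperonin-like proteins Mkks, Bbs10 and Bbs12, which help to assemble the BBSome, were lower by 2 of 5 probes (40%, against 10.3% of all kept probes), with a median of -0.75. Bbs12 had levels of -2.50, -2.68 and -2.30 in NZO, against -2.09, -1.44 and -1.54 in B6-ob/ob, without overlap, a difference of -0.81 (SE 0.21, limma adjusted p = 0.0382). It was called in 9 of 17 alternative settings, and not with any 1 of the NZO replicates or B6-ob/ob replicates 5 and 6 left out. Both probes of Bbs10 were lower on each NZO array than on any B6-ob/ob array, with differences of -0.75 and -0.77, but neither passed (adjusted p = 0.0887 and 0.0722). These probes share 40 of their 60 positions in the genome and are close to 1 measurement.

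Mkks was measured by a pair of probes with differences of opposite sign. One, at chr2:136711341-136711400, had levels of -0.61, -0.38 and -0.41 in NZO, against 0.23, 0.30 and 0.25 in B6-ob/ob. Its difference was -0.72 (SE 0.12, limma adjusted p = 0.00743), without overlap. The other, at chr2:136699947-136700006, had levels of -1.72, -2.05 and -1.89 in NZO, against -2.47, -2.52 and -2.19 in B6-ob/ob. There NZO lay above B6-ob/ob on every array, but the difference of 0.50 did not pass (SE 0.15, adjusted p = 0.0585). The gap between the probes was 1.23, and which of them follows the total Mkks transcript was not tested.

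Among the small GTPases no probe passed. Arl3, which releases lipid-anchored cargo inside the cilium, had levels of 3.27, 3.18 and 3.36 in NZO, against 3.65, 3.68 and 3.54 in B6-ob/ob. These groups did not overlap, and the difference was -0.35 (SE 0.11, limma adjusted p = 0.0716). The differences of Arl6, which recruits the BBSome to membranes, were -0.35 and -0.26 at its probes. Arl13b, which activates Arl3, differed by 0.10, 0.11 and 0.16 at its 3 probes, all with overlapping groups.

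IFT-B genes were below 0 at all 17 kept probes, with 5 called lower (29.4%, against 10.3% of all kept probes), 0 called higher (against 11.5%) and a median of -0.47. Ift57, a subunit at the periphery of the IFT-B particle, was lower by each of its 3 kept probes. The probe that crosses the long intron gave 2.55, 2.49 and 2.63 in NZO, against 3.51, 3.64 and 3.30 in B6-ob/ob. That at chr16:49759454-49759513 gave 3.08, 2.99 and 3.29 in NZO, against 3.99, 4.15 and 3.95 in B6-ob/ob. The third, at chr16:49764123-49764182, gave 3.69, 3.58 and 3.70 in NZO, against 4.48, 4.61 and 4.49 in B6-ob/ob. No array of one strain reached the range of the other at any of the 3. The differences were -0.93, -0.91 and -0.87 (SE 0.13, 0.13 and 0.11, limma adjusted p = 0.00478, 0.00501 and 0.00308), or 1.83-fold to 1.90-fold lower in NZO.

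Ift74, which binds tubulin together with Ift81, had levels of -0.40, -0.56 and -0.34 in NZO, against 0.27, 0.23 and 0.29 in B6-ob/ob. The B6-ob/ob arrays lay within a narrow band above NZO, and the difference was -0.70 (SE 0.11, limma adjusted p = 0.00762). Ift52, a core scaffold of the particle, had levels of -1.75, -1.90 and -1.58 in NZO, against -1.08, -1.14 and -0.87 in B6-ob/ob, at 1 of its 2 probes. That difference was -0.71 (SE 0.14, adjusted p = 0.0158), and the other Ift52 probe, also without overlap, differed by -0.28 (adjusted p = 0.131). The Ift52 call was lost with NZO 10, NZO 11 or B6-ob/ob 5 left out, with adjusted p between 0.0504 and 0.0628. The other 12 IFT-B probes, of Ift20, Ift52, Ift80, Ift81, Ift88 and Ift172, were not called. Ift81 had the widest of these differences at -0.97, with overlapping groups, and Ift88, whose loss abolishes cilia in mice, the narrowest at -0.06.

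The IFT-A and kinesin-2 members had no called probe (0% lower and 0% higher, against 10.3% and 11.5% of all kept probes). Genes of the retrograde dynein are among the further genes given below. The IFT-A genes Ift122 and Ift140 gave differences between -0.11 and 0.26 at 4 probes, with a median of 0.02. Kif3a and Kif3b, the motor subunits of kinesin-2, gave -0.02 and 0.01 for Kif3a and -0.39 and -0.25 for Kif3b, with adjusted p between 0.138 and 0.959. The difference between IFT-B and IFT-A was not tested.

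Transition zone and basal body genes had 4 of 10 probes lower (40%, against 10.3% of all kept probes), 1 higher (10%, against 11.5%) and a median of -0.31. Rpgrip1l, a scaffold of the transition zone, had levels of -5.06, -5.13 and -4.80 in NZO, against -3.36, -3.34 and -3.89 in B6-ob/ob, by the probe printed above. The groups were far apart, but this probe is dim: it was well above background on 2 of 3 NZO arrays and on all 3 B6-ob/ob arrays. The difference was -1.47 (SE 0.19, limma adjusted p = 0.00363), and it did not pass with normexp background correction at the 75th percentile (-0.21, adjusted p = 0.393), while with normexp and quantile normalization it was -0.36 (adjusted p = 0.0244). A second Rpgrip1l probe, at chr8:93741433-93741492, had levels of -2.36, -2.40 and -1.83 in NZO, against -2.14, -1.89 and -1.45 in B6-ob/ob. These overlapped, with a difference of -0.37 (adjusted p = 0.331).

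Nphp4, a nephronophthisis gene of the transition zone, had levels of -0.76, -0.36 and -0.39 in NZO, against 0.24, 0.54 and 0.21 in B6-ob/ob. NZO lay below on every array, with a difference of -0.84 (SE 0.16, limma adjusted p = 0.0154), and without B6-ob/ob replicate 5 the adjusted p was 0.0658. Cep290, a gatekeeper between the axoneme and the membrane, had levels of -2.81, -3.08 and -3.26 in NZO, against -2.30, -2.41 and -2.12 in B6-ob/ob, at 1 of 2 probes. These did not overlap, with a difference of -0.77 (SE 0.16, adjusted p = 0.0174). It was -0.25 with normexp background at the 75th percentile (adjusted p = 0.185), and the call was also lost without NZO 11 (adjusted p = 0.0671) and without B6-ob/ob 5 (0.0517). The other Cep290 probe overlapped and differed by 0.20 (adjusted p = 0.603). Ahi1, mutated in human Joubert syndrome, had levels of -1.24, -1.14 and -1.30 in NZO, against -0.86, -0.64 and -0.72 in B6-ob/ob. That probe gave -0.48 (SE 0.12, adjusted p = 0.0315) without overlap, and a second gave -0.25 (adjusted p = 0.316). The Ahi1 call was made in 8 of 16 alternative settings. It was -0.29 with normexp background at the 75th percentile (adjusted p = 0.133), and with 1 array left out the call held for B6-ob/ob 4 and for no other array. Tmem67 and Ofd1 differed by -0.17 and -0.00 and were not called.

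Alms1 was the transition zone and basal body member that was higher in NZO. It encodes a centrosome and basal body protein. Its kept probe, at chr6:85646790-85647344, had levels of -1.24, -1.04 and -0.67 in NZO, against -2.72, -2.32 and -2.10 in B6-ob/ob. Every NZO array lay above every B6-ob/ob array. The difference was 1.40 (SE 0.22, limma adjusted p = 0.00694), or 2.64-fold, and the other 2 Alms1 probes did not pass the filter on dim probes. In the deposited value table the Alms1 difference was all but absent, as given at the end.

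**Figure D2:**
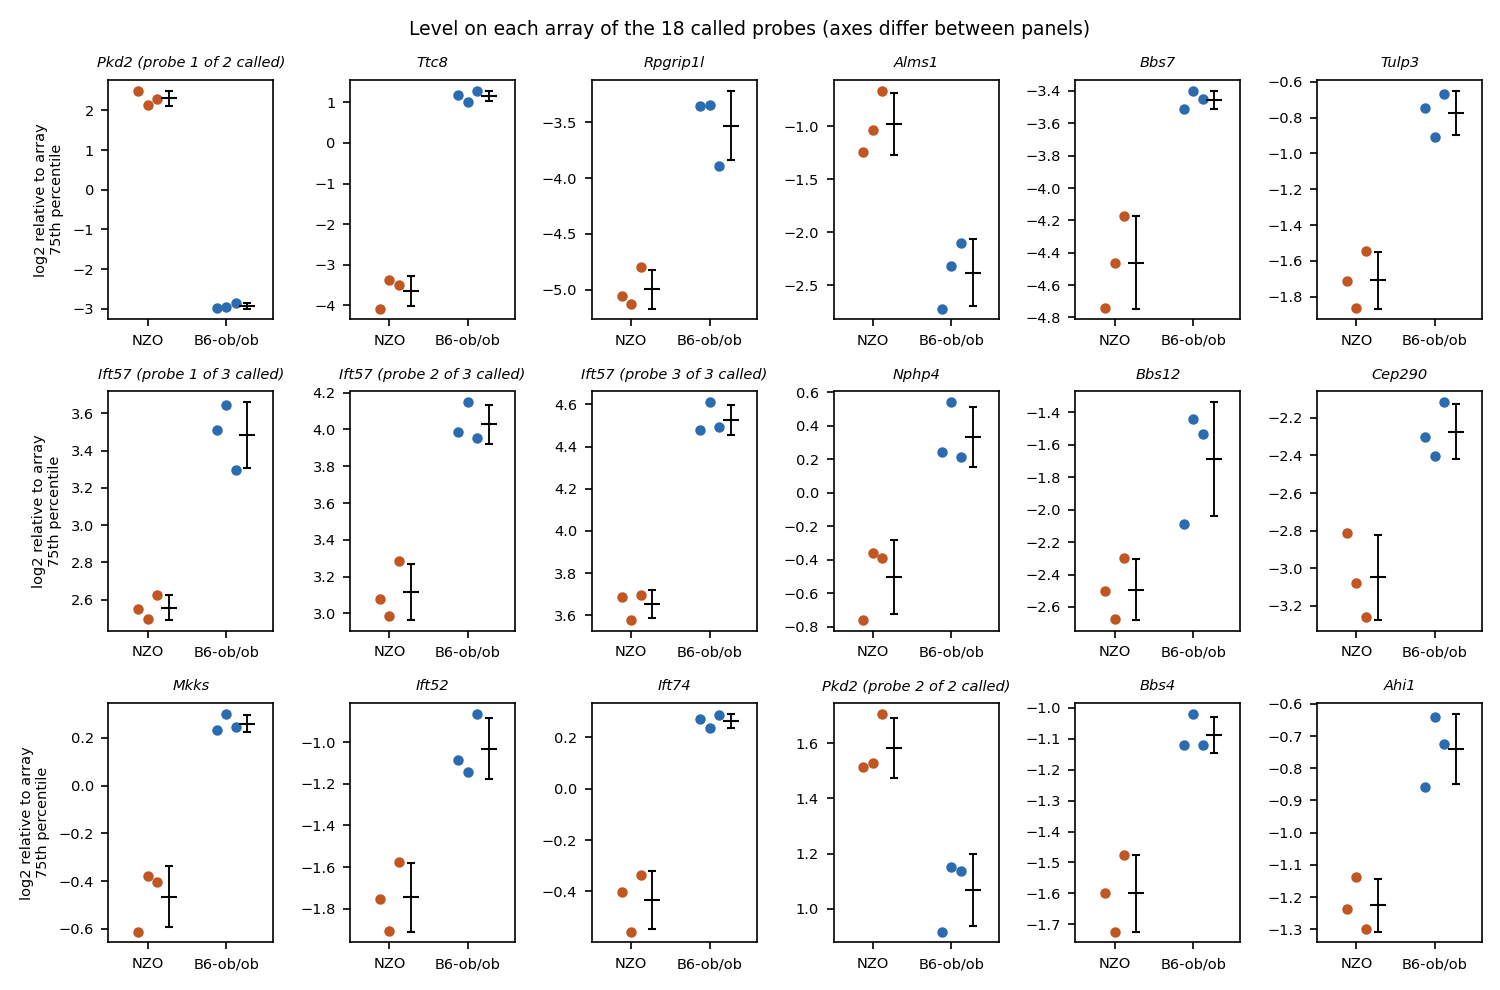
Level on each array, in log2 units relative to the 75th percentile of that array, of the 18 called probes, ordered by size of difference, with NZO arrays 10, 11 and 12 (orange) left of B6-ob/ob arrays 4, 5 and 6 (blue) in each panel and black bars for mean ± SD. The strains do not overlap in any panel, and NZO is above B6-ob/ob in the panels of Pkd2 and Alms1 and below it in the others.

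The remaining members gave the highest value of the set. Pkd2 encodes polycystin-2, a cation channel of the ciliary membrane. The Pkd2 probe printed above had levels of 2.49, 2.12 and 2.29 in NZO, against -2.98, -2.94 and -2.86 in B6-ob/ob. The groups were separated by many times their own spread, and the difference was 5.23 (SE 0.13, limma adjusted p = 2.66e-05), or 37.6-fold, the 30th highest of 24627. Over 16 alternative settings this difference ran from 4.07 to 5.32. A second kept probe, at chr5:104934662-104934721, had levels of 1.51, 1.53 and 1.71 in NZO, against 0.92, 1.15 and 1.14 in B6-ob/ob. Its difference was 0.51 (SE 0.13, adjusted p = 0.0327), or 1.43-fold, without overlap. That call was lost with any 1 of the 6 arrays left out, with adjusted p between 0.0502 and 0.0923. So the probes had the same direction but differed by 4.72 in size, and the size of the Pkd2 difference between strains is not settled by them.

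Pkd1, which encodes the large receptor partner of polycystin-2, had levels of 1.77, 2.04 and 2.17 in NZO, against 2.20, 2.42 and 2.59 in B6-ob/ob. The groups did not overlap, but the difference of -0.41 did not pass (SE 0.16, limma adjusted p = 0.128). Tulp3, an adaptor that links receptors to IFT-A for entry into the cilium, had levels of -1.71, -1.86 and -1.55 in NZO, against -0.75, -0.91 and -0.67 in B6-ob/ob. Its difference was -0.93 (SE 0.14, adjusted p = 0.00524), without overlap, or 1.91-fold lower in NZO. Rfx3 encodes a transcription factor that drives cilium genes and is needed for beta cell maturation in mice. At its 3 probes, NZO arrays gave -4.20, -3.98 and -4.65, then -5.21, -2.54 and -4.01, then -5.13, -4.90 and -5.03. B6-ob/ob arrays gave -3.97, -4.21 and -4.18, then -2.84, -4.40 and -3.85, then -4.39, -5.15 and -4.68. The groups overlapped at each probe, with differences of -0.16, -0.22 and -0.29 and adjusted p of 0.623, 0.861 and 0.385.

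Of the 20 genes with at least 2 kept probes, 15 had differences of 1 sign and 5 (Bbs5, Cep290, Ift140, Kif3a and Mkks) had both signs. The widest gaps between probes of a gene were those of Pkd2, Mkks and Rpgrip1l, each over 1 on the log2 scale, and 14 genes had gaps under 0.5. In 7 genes some probes were called and others not, and in Ift57 and Pkd2 every kept probe was called, the second Pkd2 probe with the losses given above. With the brightest probe of each gene in place of all probes, 8 of 36 genes were lower (22.2%, against 9% of all names) and 2 higher (5.56%, against 13.2%), with a median of -0.25.

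Some cilium genes stand on the array under older names and fall outside the rule. Rabl5 and Rabl4, now Ift22 and Ift27 of the IFT-B particle, were lower in NZO by differences of -0.86 and -0.81 (limma adjusted p = 0.00543 and 0.0158). Ift46, present as a clone name, gave -0.11 and -0.04 at its probes, and Ift43 of IFT-A gave 0.07.

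**Figure D3:**
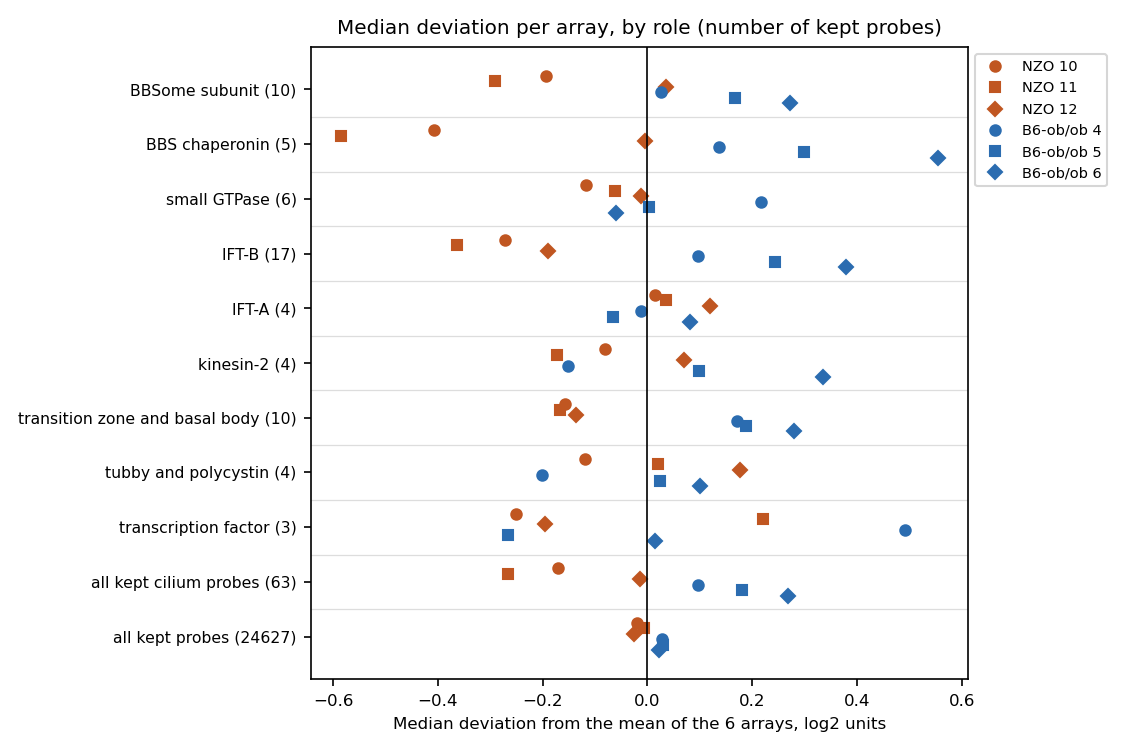
Median deviation of the kept probes of each role from their 6-array mean, in log2 units, 1 point per array, NZO arrays in orange above B6-ob/ob arrays in blue, with the number of probes beside each role. For IFT-B, the transition zone and basal body, the chaperonins and all 63 cilium probes the NZO arrays lie left of the B6-ob/ob arrays, while for the BBSome, the GTPases, IFT-A, kinesin-2, the polycystin group and Rfx3 they mix, and over all 24627 kept probes they stay within 0.03 of 0.

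RFX factors are known to bind an inverted repeat in promoters of cilium genes, and RefSeq promoters (GRCm38.p6, 250 bases before to 50 after each start) were therefore read for it. The core GTTGCC, on either strand, stood in 13 of 38 promoters of 34 cilium genes (34.2%), against 12.5% of 32851 promoters. The repeat GTTNCC and GGNAAC with 0 to 3 bases between, which can overlap a core, stood in 4 of the 38, against 0.804% of all promoters. The 4 were those of Ahi1, Bbs7, Ift57 and Mks1. Of the 13 genes with the core, 4 (Ahi1, Bbs7, Ift57 and Nphp4) had a called probe, beside 15 of the 36 genes on the array. These sets are not alike: the 13 include Mks1, which has no probe, and some of the 36 had no promoter here. A match describes these letters and not binding. The promoters of Ift57 and Bbs7 are shown because both genes had a probe called lower in NZO, Bbs7 at 1 of its 2 kept probes. The repeat is in capitals, beginning at position -60 in Ift57 and -121 in Bbs7, counted from the start.
Ift57, chr16:49699044-49699343, plus strand: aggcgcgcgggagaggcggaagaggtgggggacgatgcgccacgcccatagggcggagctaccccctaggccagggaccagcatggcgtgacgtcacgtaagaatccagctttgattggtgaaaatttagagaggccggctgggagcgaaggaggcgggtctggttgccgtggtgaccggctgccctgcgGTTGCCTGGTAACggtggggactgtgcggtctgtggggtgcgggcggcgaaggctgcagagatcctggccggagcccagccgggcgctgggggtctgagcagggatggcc
Bbs7, chr3:36613340-36613639, minus strand: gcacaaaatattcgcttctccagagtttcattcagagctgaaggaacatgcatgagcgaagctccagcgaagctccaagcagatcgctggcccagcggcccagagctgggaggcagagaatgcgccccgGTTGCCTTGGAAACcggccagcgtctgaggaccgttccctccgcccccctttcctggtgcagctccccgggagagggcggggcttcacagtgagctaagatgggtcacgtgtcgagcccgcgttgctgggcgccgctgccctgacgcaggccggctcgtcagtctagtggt
In Ahi1 the repeat GTTACCTAGGCAAC began 22 bases into the transcript.

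Other cilium genes gave the following counts. Of 36 probes of further intraflagellar transport genes 14 were lower (38.9%) and 0 higher, with a median of -0.37. They included Wdr60, a subunit of the retrograde dynein, at -1.63, Ttc30b, an IFT-B subunit, at -1.08, and Dync2h1, the dynein heavy chain, at -1.06 by 1 of its 6 kept probes. Rabl5 and Rabl4 are among the 14. The count was 8 without NZO replicate 10 and 6 without B6-ob/ob replicate 5. Of 38 probes of further transition zone and ciliopathy genes 8 were lower (21.1%) and 0 higher, with a median of -0.23, led by Rpgrip1, a retinal ciliary protein related to Rpgrip1l, at -1.76. Sdccag8 followed at -1.02. There the count was 5 with NZO 10, NZO 11 or B6-ob/ob 5 left out. These limma calls stand against 10.3% lower and 11.5% higher among all kept probes.

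Centriole genes were lower at 9 of 51 probes (17.6%) and higher at 3, with a median of -0.15. Sclt1, of the distal appendages that dock the centriole, was lower at -1.63. By 1 of its probes Sass6, of the centriole cartwheel, was well above background on no NZO array and at least 2.50-fold lower there. Ninl was well above background on no B6-ob/ob array and at least 2.56-fold higher in NZO. Both passed the filter through the strain in which they are bright, and no p is given for them. Without NZO replicate 11 or B6-ob/ob replicate 5 the counts were 5 lower and 1 higher, and without NZO replicate 10 they were 6 and 2. Of 27 probes for ciliary cargo 3 were lower (11.1%, near the 10.3% of all kept probes) and 1 higher, with Cys1, a ciliary membrane protein, higher by 2.52, while Lztfl1 and Wdpcp were lower at -0.67 and -0.57. With any 1 of NZO replicates 10 and 11 or B6-ob/ob replicate 5 left out, 0 cargo probes were lower, and 1 was without NZO replicate 12 or B6-ob/ob replicate 6.

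Hedgehog genes, whose signal passes through the cilium, had 7 of 16 probes higher in NZO (43.8%), 0 lower and a median of 0.81. Stellate and ductal markers, given above, were higher in NZO too, and their part in these differences was not tested. Gli2, a transcription factor of the pathway, was at least 3.20-fold higher, being well above background on no B6-ob/ob array, and was kept through its NZO arrays alone. Among probes well above background on all 6 arrays, 5 Hedgehog probes were higher. The ligand Dhh was higher by 2.31 and the receptor Smo by 2.14. Of 11 probes of ciliary receptors and cyclases, 2 were higher (18.2%, against 11.5% of all kept probes), both of the cyclase Adcy5, and 1 lower (9.09%, near the 10.3%). The Adcy5 probes were well above background on 1 and 2 of the 3 B6-ob/ob arrays, and among probes above it on all 6 arrays 0 were higher. Sstr3, a somatostatin receptor of neuronal and islet cilia, was lower at -0.53, which was not called with NZO 10, NZO 11 or B6-ob/ob 5 left out. The transcription factors Glis2 and Rfx7 were higher by 0.99 and 0.85, in 3 of 16 probes (18.8%, against 11.5% of all kept probes), and in 1 without NZO replicate 11 or B6-ob/ob replicate 5. Motile cilium genes had 3 of 23 probes higher (13%, near the 11.5% of all kept probes) and 3 lower (13%, near the 10.3%). Dnahc9 at 2.41 and Rsph1 at 1.55 were among the higher, and Dnahc8 was lower at -1.99. Of the tubulin modification genes Agbl3 and Ttll11 were lower at -0.66 and -0.60, in 3 of 25 probes (12%, near the 10.3% of all kept probes), and in 0 without B6-ob/ob replicate 5 and 1 without NZO replicate 10 or 11. Of 11 probes of cilium disassembly genes 1, of Kif2a, was higher at 0.53 (9.09%, near the 11.5% of all kept probes). The Kif2a probe was called without B6-ob/ob replicate 4 and not without any other array. Without B6-ob/ob replicate 6, 4 disassembly probes were lower.

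**Figure D4:**
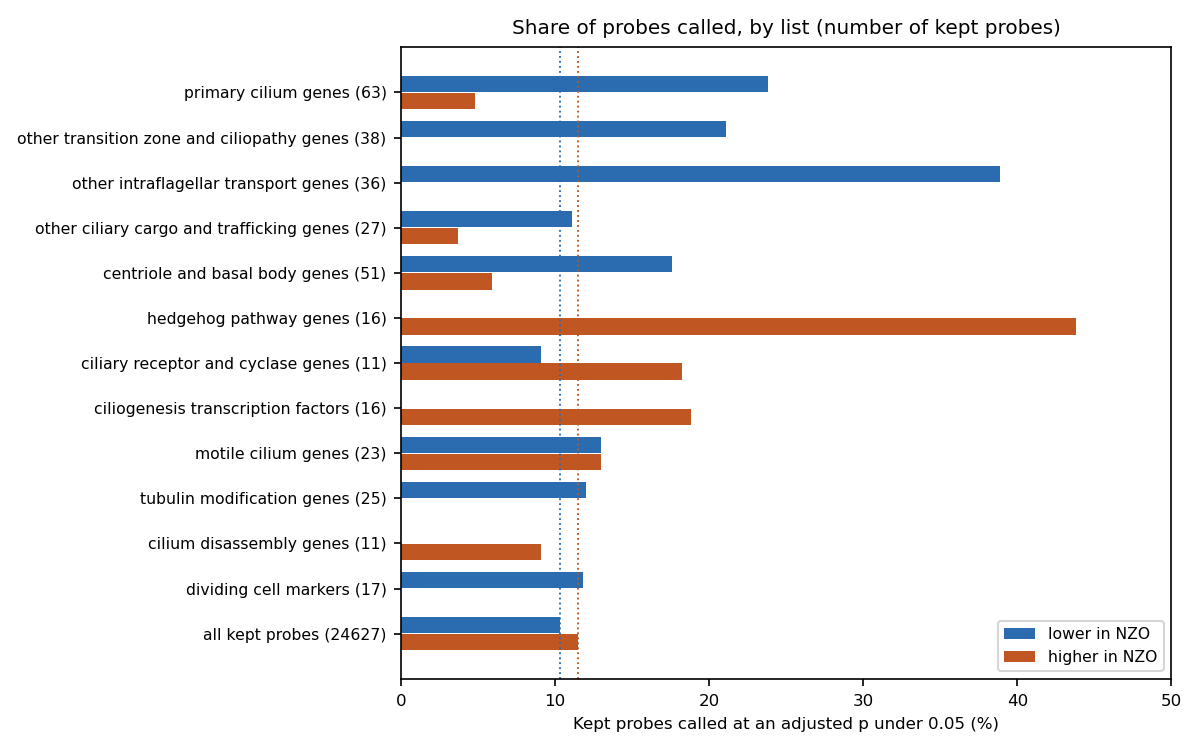
Share of kept probes called at an adjusted p under 0.05, in percent, for the primary cilium genes, the further lists and all kept probes, with the number of probes beside each list. Blue bars count probes lower in NZO, orange bars probes higher, and dotted lines mark 10.3% and 11.5%. The share lower was 23.8% for the primary cilium genes and 38.9% for the further intraflagellar transport genes, and the share higher was 43.8% for the Hedgehog genes.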

How the data were processed

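Islet RNA of 6 mouse samples, 3 of NZO and 3 of B6-ob/ob, was labelled with Cy3 and hybridised to 6 arrays of Agilent design 014868, per the labels' protocols. The deposited intensity values are the scanner software's processed signals of each spot, already background-subtracted, and the file headers name Feature Extraction 10.5.1.1 as their source, where the submitters' processing notes name 9.1. The authors' deposited value table also holds intensity values on a linear scale, with a normalization that is not given in the sources used here, and served, after log2, as an alternative.

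Spots of a probe were averaged on the log2 scale, each array was set relative to its 75th percentile, controls and outlier spots were left out, and probes well above background on at least 3 arrays were kept. Strains were compared by limma 3.58.1 (R 4.3.3) over all kept probes, with Benjamini-Hochberg adjustment and a threshold of 0.05, and the fit was tested on simulated data. The number of arrays limits the precision. Probes of called genes, of genes whose probes differ by over 1, and of Rfx3, Pkd1 and Pkd2 are given by array, and up to 3 called genes are named from each further list, apart from 1 that is not reported here. The members and lists were chosen with earlier results of these data known. Alternatives were normexp background correction (offset 50), quantile and median scaling, other filters, the brightest probe of each name, slide as a block, other variance models, array weights, the value table and each replicate left out.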

Additional observations from a re-analysis of the deposited data

How the results depend on the processing

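Of the 18 called probes, 9 were called under every alternative run on the scanner files: those of Ttc8, Ift74, Mkks, Alms1 and Tulp3, the 3 of Ift57 and the Pkd2 probe at 5.23. Another 3 were lost in 1 alternative (Bbs7 and Rpgrip1l with normexp background at the 75th percentile but not with normexp and quantile normalization, Nphp4 without B6-ob/ob replicate 5), and 6 in more. The 15 probes lower in NZO became 9 with normexp background at the 75th percentile and 30 with array weights. With the brightest probe of each name they were 8 of 36 (22.2%, against 9% of all names). Leaving out each array gave 9 to 17 lower (9 without B6-ob/ob replicate 5), 2 to 3 higher and a median difference of -0.350 to -0.256. Over all kept probes the median with an array left out was -0.0663 to -0.0490. Shares of all kept probes called are given here for the main fit and the brightest probes alone. Counts in the other settings, here and above, are therefore not set against all kept probes. The median was -0.464 within slide 3 and -0.278 within slide 2, comparisons chosen after seeing the data.

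The deposited value table, whose columns follow arrays of the other strain, has rows for 38 cilium probes, not for all 63. Of the 38, 1 was lower and 8 higher by label, with a median of 0.279. Differences in that table were 4.85 for Ttc8, 0.94 for Tulp3, 0.93 for Ift57, 0.83 for Bbs12, 0.82 for Nphp4 and 0.68 for Ift74. They were 0.48 for Mkks, 0.30 for Ift52, 0.27 for Ahi1 and -0.053 for Alms1. The row named for the second Pkd2 probe gave -1.84, where that probe gave 0.51 on the scanner files. Whether a row stands for 1 probe or for several of a gene was not tested, so these values may not be those of single probes. The Alms1 difference was thus far smaller in size there than the 1.40 on the scanner files. Dim probes such as those of Rpgrip1l and Rfx3 have little signal over background. No analysis paired by replicate was possible because the strains share no replicate numbers. The main fit had no block, and slide was a block in alternative fits alone.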
